A study of Homo sapiens with 14 samples.

Results

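Aminoacyl tRNA synthetases are the enzymes that join each amino acid to its tRNA. The 10 genes described here (AARS, CARS, EPRS, GARS, LARS, MARS, NARS, SARS, WARS and YARS) encode synthetases that work in the cytosol, and they were chosen by symbol. All 10 were found in both deposited expression tables, among 22919 gene symbols that the tables share, and all 10 were among the 12603 genes tested. No measured value entered the rule that chose them, but they were proposed with earlier results of these libraries known.

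Each enzyme is named for the amino acid it loads. AARS loads alanine, CARS cysteine, GARS glycine, NARS asparagine, SARS serine, WARS tryptophan and YARS tyrosine. EPRS (glutamate and proline), LARS (leucine) and MARS (methionine) sit in the multisynthetase complex, an assembly of several synthetases with scaffold proteins, while the others work outside it. When amino acids run short, or under other stress, kinases phosphorylate the translation factor eIF2alpha. The transcription factor ATF4 is then made in larger amounts, and it is known to act through C/EBP-ATF response elements in the DNA of genes for amino acid synthesis, amino acid transport and tRNA charging. The cytosolic synthetases known as targets of this pathway are a subset of all synthetases. The mTOR kinase complex, which rapamycin inhibits, is also known to promote ATF4 production.

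The cells were U2OS, a human osteosarcoma line grown in RPMI medium, and the measurement was poly(A) RNA sequencing. Treated cells received 2-PCPA (tranylcypromine, an inhibitor of the histone demethylase LSD1) at 1 mM for 12 h, GSK343 (an inhibitor of the histone methyltransferase EZH2) at 10 μM for 24 h, or rapamycin at 5 μM for 24 h, with 2 libraries each. A single library each was made with GSK-J4 (an inhibitor of histone H3 lysine demethylases, 20 μM for 12 h), BIX-01294 (5 μM, 12 h), BRD4770 (20 μM, 24 h), SAHA (1 μM, 24 h), UNC1215 (50 μM, 24 h) or VPA (20 μM, 24 h). BIX-01294 and BRD4770 are inhibitors of the histone methyltransferase G9a, SAHA and VPA inhibit histone deacetylases, and UNC1215 binds the methyl-lysine reader L3MBTL3. Controls received the solvent DMSO at 0.5% by volume, with 2 libraries, and the labels used here give no time for them. Dose and time therefore differ between compounds along with the compound itself, and these cannot be told apart. No label states whether a replicate was a culture of its own, and the spread behind every p-value is that between libraries, which may be technical.

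The 14 libraries came in 2 tables made separately, 10 libraries in the replicate 1 table and 4 in the replicate 2 table. Values are FPKM (fragments scaled by transcript length and by library size), so levels of different genes can be set side by side, and libraries were compared only within their own table. Between 12045 and 13157 genes reached 1 FPKM in a library. The depth of each library is not stated. Estimated from the steps between low values, a library's depth as a ratio to its DMSO library ran from 0.559 for BIX-01294 to 1.24 for SAHA in replicate 1, and from 0.674 for GSK343 to 0.807 for 2-PCPA in replicate 2. The replicate 1 estimates are rough. The commonest step was shared by 81 of 5737 genes for BIX-01294 and 62 of 6140 for SAHA. In replicate 2 it was shared by 472 of 6870 genes for GSK343 and 694 of 6916 for 2-PCPA. One library stood apart: 2-PCPA replicate 1 summed to 291956 FPKM, against 456039 for its DMSO library, and the median tested gene lay 0.42 below DMSO on the log2 scale there, whereas in replicate 2 that median was 0.01. The mesenchymal markers VIM and SPARC were high in all 14 libraries (388 to 1119 and 154 to 330 FPKM), and the blood and liver markers PTPRC, CD14 and ALB did not exceed 0.525 FPKM. CDKN2A, which is silenced in U2OS, did not exceed 0.250 FPKM. The epithelial markers EPCAM and CDH1 stayed at or below 2.51 FPKM, while the keratins KRT8 and KRT18 were at 193 FPKM or more, and the osteoblast factor RUNX2 ranged only between 0.629 and 5.27 FPKM. In bulk RNA, fewer cells that express a gene and less of its RNA per cell cannot be told apart.

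The promoter sequences are shown first because C/EBP-ATF response elements are the sites through which ATF4 is known to act. RefSeq promoter windows (GRCh38.p14, 250 bases before to 50 bases after each annotated start) were matched for 8 of the 10 genes: AARS, CARS, EPRS, GARS, MARS, NARS, SARS and WARS. LARS and YARS are named only. The core TGATGNAA, read on both strands (TTNCATCA on the other), lay in the windows of 5 of these 8 genes. Of all 27305 RefSeq genes with a window, 4.46% hold it in at least 1 window (3.62% of the 35116 windows). The stricter form TGATGCAA, which is contained in the first, was found in 4 of the 8 genes, against 1.08% of all genes with a window. The 30 bases around each match are printed 5′ to 3′ on the strand of the gene, with the matching 8 bases in capitals.
AARS, chr16:70289675-70289704, minus strand: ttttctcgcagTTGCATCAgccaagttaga
CARS, chr11:3057407-3057436, minus strand: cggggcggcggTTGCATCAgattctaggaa
GARS, chr7:30594834-30594863, plus strand: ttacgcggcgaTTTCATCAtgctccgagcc
MARS, chr12:57488053-57488082, plus strand: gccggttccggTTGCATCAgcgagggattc
NARS, chr18:57621804-57621833, minus strand: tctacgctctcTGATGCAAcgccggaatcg

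The AARS match lay well upstream, at bases -187 to -180 counted from the annotated start, where the first transcribed base is 1 and there is no base 0. The matches of CARS (-2 to 6) and MARS (-4 to 4) spanned the start itself, that of NARS lay in the first transcribed bases (15 to 22), and that of GARS lay just upstream of the second of its 2 annotated starts (-33 to -26). In 4 of the 5 genes the element read TTNCATCA along the strand of the gene, and in NARS it read TGATGNAA. The windows of EPRS, SARS and WARS held neither form, which says only that these letters are not in these windows. Other motifs searched the same way were the cyclic AMP element TGACGTCA, which no window of the 8 genes held (2.25% of all genes with a window), its looser form TGACGNNA, also in none (9.02%), the NRF1 type motif in 1 gene (6.98%), the longer core TGATGNAAT, which contains TGATGNAA, in 1 gene (1.22%), and CCAAT in 4 genes (39.7%). A match is a description of letters and was not tested as a binding site.

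For wider context the 250 bases before the AARS start are printed (chr16:70289507-70289756, minus strand, 5′ to 3′, the element in capitals).
AARS upstream: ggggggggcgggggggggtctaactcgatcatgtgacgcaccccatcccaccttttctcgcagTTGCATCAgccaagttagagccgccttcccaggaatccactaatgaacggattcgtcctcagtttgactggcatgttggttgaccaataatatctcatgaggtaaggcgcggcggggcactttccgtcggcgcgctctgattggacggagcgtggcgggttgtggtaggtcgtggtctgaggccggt

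**Figure D1:**
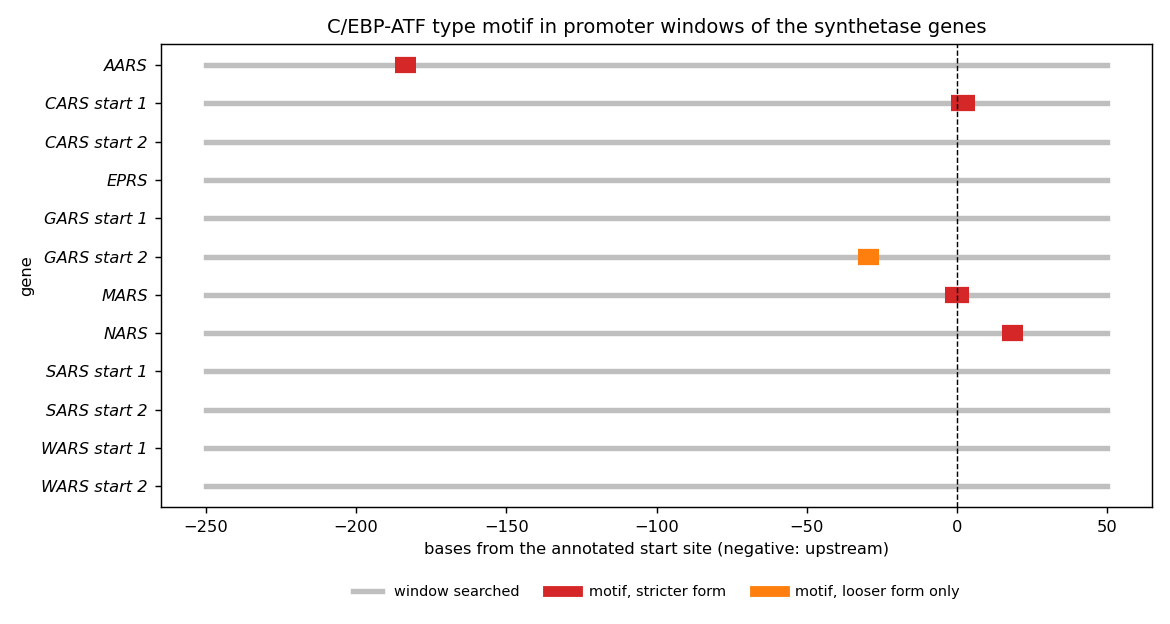
Position of the C/EBP-ATF type motif in the promoter windows of the 8 synthetase genes with a RefSeq window; the horizontal axis is the distance in bases from the annotated start, grey bars are the windows searched and coloured blocks the matches. AARS, CARS, MARS and NARS hold the stricter form TGATGCAA, GARS holds only the looser form, and EPRS, SARS and WARS hold neither.

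All 10 genes were well expressed in the DMSO libraries. SARS was the most abundant, at 118 and 109.6 FPKM in DMSO replicates 1 and 2, followed closely by GARS (96.7 and 91.0 FPKM) and MARS (90.8 and 100.0 FPKM), whose order turned between the replicates. YARS (58.6 and 64.6 FPKM), NARS (62.3 and 46.8 FPKM) and AARS (50.9 and 45.3 FPKM) formed the middle of the list, and YARS and NARS changed places. EPRS (33.9 and 32.9 FPKM), LARS (29.9 and 25.6 FPKM), CARS (25.3 and 29.8 FPKM) and WARS (23.8 and 25.3 FPKM) were the lowest, and the order of LARS and CARS turned between the replicates. WARS still ranked above at least 72.9% of the genes tested in both DMSO libraries.

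**Figure D2:**
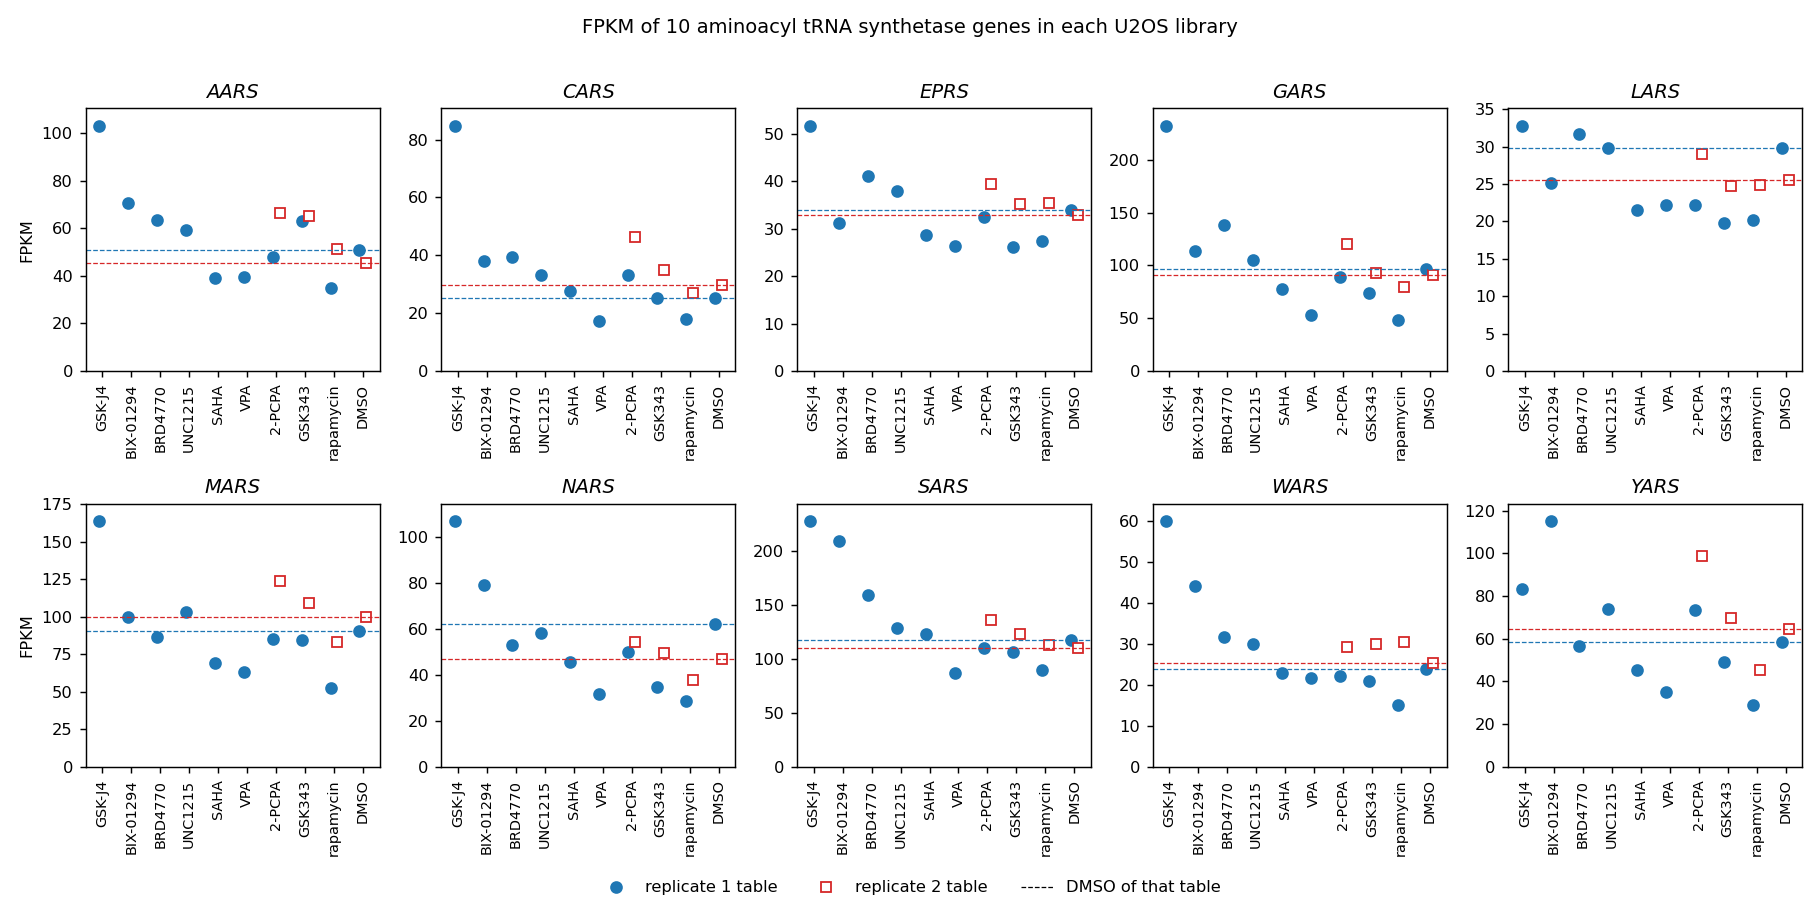
FPKM (vertical axis, from 0) of the 10 synthetase genes in each library; filled circles are the replicate 1 table, open squares the replicate 2 table, and dashed lines the DMSO library of each table. The GSK-J4 library is the highest of the replicate 1 table for every gene except YARS, which was highest with BIX-01294 at 115 FPKM, and rapamycin or VPA is the lowest for 8 of the 10 genes, with GSK343 lowest for EPRS and LARS.

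The question for 2-PCPA was how an inhibitor of H3K4 demethylation moves these genes against the solvent. CARS and YARS were higher than DMSO in both replicates, and 0 members were lower in both, against 11.5% of all genes higher and 42.2% lower. CARS, the cysteine enzyme, was at 33.1 and 46.2 FPKM with 2-PCPA, against 25.3 and 29.8 FPKM with DMSO. YARS, the tyrosine enzyme, was at 73.4 and 98.9 FPKM with 2-PCPA, against 58.6 and 64.6 FPKM with DMSO. For both genes the library with 2-PCPA was above the DMSO library of its own table in each table. The log2 fold change on the log2(FPKM + 1) scale was 0.50 ± 0.21 (SE) for CARS and 0.46 ± 0.23 for YARS, and neither passed limma's test with Benjamini-Hochberg adjustment over all genes (adjusted p = 0.592 each).

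The other 8 genes went opposite ways in the 2 replicates with 2-PCPA. AARS is an example, at 48.1 and 66.3 FPKM with 2-PCPA and 50.9 and 45.3 FPKM with DMSO, a log2 fold change of 0.23 ± 0.25. Among the enzymes of the multisynthetase complex, MARS was at 85.1 and 124 FPKM with 2-PCPA, against 90.8 and 100.0 FPKM with DMSO. LARS was at 22.2 and 28.97 FPKM with 2-PCPA, against 29.9 and 25.6 FPKM with DMSO. In each of these the replicate 1 library was below DMSO and the replicate 2 library above it. In replicate 2 alone all 10 genes were higher than DMSO, against 51.4% of all genes, with log2 ratios from 0.17 for LARS to 0.61 for CARS and YARS, and these last 2 were the only ones at least 1.5-fold higher, against 3.23% of all genes.

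By limma, 0 of the 10 genes passed the adjusted threshold of 0.05 with 2-PCPA, against 0.0238% of all genes (3 genes), and 1 had an unadjusted p under 0.05 (CARS), against 7.48% of all genes. The median log2 fold change of the 10 genes was 0.11, and that of all genes tested was -0.20, the medians of all genes by library being -0.42 in replicate 1 and 0.01 in replicate 2. Set against the median of all genes in its own library, each of the 10 synthetase genes lay above it in both replicates, as did 31.8% of all genes. In replicate 1 LARS was practically at that median, 0.0045 above it, and NARS was 0.11 above it. The median of the 10 above that level was 0.32 in replicate 1 and 0.30 in replicate 2. Without 2-PCPA replicate 1 the log2 fold change was 0.53 for CARS and 0.47 for YARS. The median of the 10 was then 0.18, beside 0.008 for all genes. The median of the 10 rested on the DMSO libraries: it was 0.32 without DMSO replicate 1 and changed sign, to -0.093, without DMSO replicate 2. The median of all genes moved too, to -0.13 and -0.28. The members' median minus that of all genes was 0.46 and 0.19 in these fits. Over 8 fits that each left out 1 library, CARS ranged between 0.37 and 0.62 and YARS between 0.27 and 0.65, and the number of members with an unadjusted p under 0.05 was 0 or 1.

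GSK343, an inhibitor of EZH2, gave no common direction. AARS was the member that was higher in both replicates, at 63.1 and 65.1 FPKM with GSK343, against 50.9 and 45.3 FPKM with DMSO (log2 fold change 0.41 ± 0.25, limma adjusted p = 0.949). LARS was the one that was lower in both, at 19.8 and 24.7 FPKM with GSK343, against 29.9 and 25.6 FPKM with DMSO (-0.31 ± 0.23, limma adjusted p = 0.949). The remaining 8 went opposite ways in the 2 replicates, and of all genes 34.6% were higher and 26.7% lower in both. NARS had the fold change farthest from 0 among them, at 34.8 and 49.4 FPKM with GSK343, against 62.3 and 46.8 FPKM with DMSO, lower in replicate 1 and slightly higher in replicate 2.

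With GSK343, 0 of 10 genes passed limma's adjusted test, against 0.0159% of all genes, and 0 had an unadjusted p under 0.05, against 4.22% of all genes. Their median log2 fold change was -0.03, beside 0.03 for all genes tested. Without DMSO replicate 1 the members' median was 0.16, beside 0.11 for all genes. Without DMSO replicate 2 it was -0.25, beside -0.030 for all genes. For SARS the fold change was 0.01 with a 95% interval of -0.52 to 0.53.

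Rapamycin was the compound with which the members were most often lower than DMSO among those with 2 libraries. YARS was at 29.1 and 45.5 FPKM with rapamycin, against 58.6 and 64.6 FPKM with DMSO. NARS was at 28.8 and 37.7 FPKM with rapamycin, against 62.3 and 46.8 FPKM with DMSO. Both genes were lower than DMSO in each table, and the gap was wider in replicate 1. The log2 fold change was -0.74 ± 0.23 for YARS and -0.69 ± 0.27 for NARS, and neither passed limma's adjusted test (adjusted p = 0.674 and 0.752). Leaving out 1 library at a time gave between -0.93 and -0.55 for YARS and between -1.06 and -0.33 for NARS, the extremes of NARS coming without DMSO replicate 2 and without DMSO replicate 1.

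GARS, the glycine enzyme, was at 48.5 and 79.8 FPKM with rapamycin, against 96.7 and 91.0 FPKM with DMSO, and MARS was at 52.5 and 83.3 FPKM with rapamycin, against 90.8 and 100.0 FPKM with DMSO. Both were lower in each table, with log2 fold changes of -0.58 ± 0.25 for GARS and -0.52 ± 0.23 for MARS (limma adjusted p = 0.752 each). With 1 library left out GARS ranged between -0.87 and -0.30, and MARS between -0.71 and -0.33. CARS and LARS were the other 2 genes lower in both replicates. CARS was at 18.1 and 26.8 FPKM with rapamycin, against 25.3 and 29.8 FPKM with DMSO. LARS was at 20.2 and 24.8 FPKM with rapamycin, against 29.9 and 25.6 FPKM with DMSO. AARS, EPRS, SARS and WARS were lower with rapamycin in replicate 1 and higher in replicate 2. WARS, for instance, was at 15.1 and 30.6 FPKM with rapamycin, against 23.8 and 25.3 FPKM with DMSO.

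The 2 rapamycin libraries differed in size of response. In replicate 1 all 10 genes were lower (56.3% of all genes were) and 5 were at least 1.5-fold lower (10.2% of all genes were), with a median log2 ratio of -0.58. In replicate 2, 6 were lower (54.9% of all genes were) and 0 reached 1.5-fold (2.78% of all genes did), with a median of -0.09. Over both replicates 6 of the 10 were lower, against 37.1% of all genes. By limma 0 of 10 passed the adjusted test, against 0.0159% of all genes, and 3 (YARS, NARS and GARS) had an unadjusted p under 0.05, against 6.46% of all genes. That count was 0 without rapamycin replicate 1 and 0 without DMSO replicate 1, 1 without rapamycin replicate 2, and 4 without DMSO replicate 2. The median log2 fold change was -0.30, beside -0.05 for all genes tested. The members' median was -0.23 without rapamycin replicate 1, -0.45 without rapamycin replicate 2, -0.099 without DMSO replicate 1 and -0.50 without DMSO replicate 2. In the same order, the median of all genes was -0.10, -0.00016, 0.017 and -0.12.

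Set directly against rapamycin, 2-PCPA had higher values for most members, though the exposures differed in length (12 h and 24 h). YARS was at 73.4 and 98.9 FPKM with 2-PCPA, against 29.1 and 45.5 FPKM with rapamycin. Its log2 fold change was 1.20 ± 0.23, with a 95% interval of 0.69 to 1.72. This did not pass limma's adjusted test (adjusted p = 0.183), and over 18 alternative settings the adjusted p ranged between 0.0115 and 1, passing in 3 of them. CARS was at 33.1 and 46.2 FPKM with 2-PCPA, against 18.1 and 26.8 FPKM with rapamycin (0.80 ± 0.21, limma adjusted p = 0.361). Both genes were higher with 2-PCPA in each table.

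GARS was at 89.2 and 121 FPKM with 2-PCPA, against 48.5 and 79.8 FPKM with rapamycin (log2 fold change 0.73 ± 0.25). NARS was at 50.1 and 54.5 FPKM with 2-PCPA, against 28.8 and 37.7 FPKM with rapamycin (0.65 ± 0.27), and MARS was at 85.1 and 124 FPKM, against 52.5 and 83.3 FPKM (0.62 ± 0.23). All 3 genes were higher with 2-PCPA in each table, with limma adjusted p values between 0.406 and 0.423. The remaining genes had smaller fold changes, from 0.17 for LARS to 0.41 for AARS. WARS was the exception in direction, at 22.3 and 29.3 FPKM with 2-PCPA and 15.1 and 30.6 FPKM with rapamycin.

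In this comparison 9 of the 10 genes were higher with 2-PCPA in both replicates, against 15.3% of all genes, and 3 (YARS, CARS and GARS) were at least 1.5-fold higher in both, against 1.10%. None of the 10 passed limma's adjusted test, against 0.0476% of all genes (6 genes), while 5 had an unadjusted p under 0.05 and were higher, against 2.49% of all genes. In either direction, 1483 of the 12603 genes had an unadjusted p under 0.05. Without the replicate block the count of members was 2 and that of all genes 650. With TPM scaling these counts were 10 and 3036, so the count of all genes rose along with that of the members. The median log2 fold change of the members was 0.52, beside -0.14 for all genes tested. It was 0.60 without 2-PCPA replicate 1 and 0.33 without rapamycin replicate 1, beside 0.06 and -0.10 for all genes. The comparisons of 2-PCPA and of rapamycin with DMSO share the same DMSO libraries, whereas the fold changes of this comparison do not use them. Its standard errors and p-values do, because the spread was estimated over all 8 libraries.

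**Figure D3:**
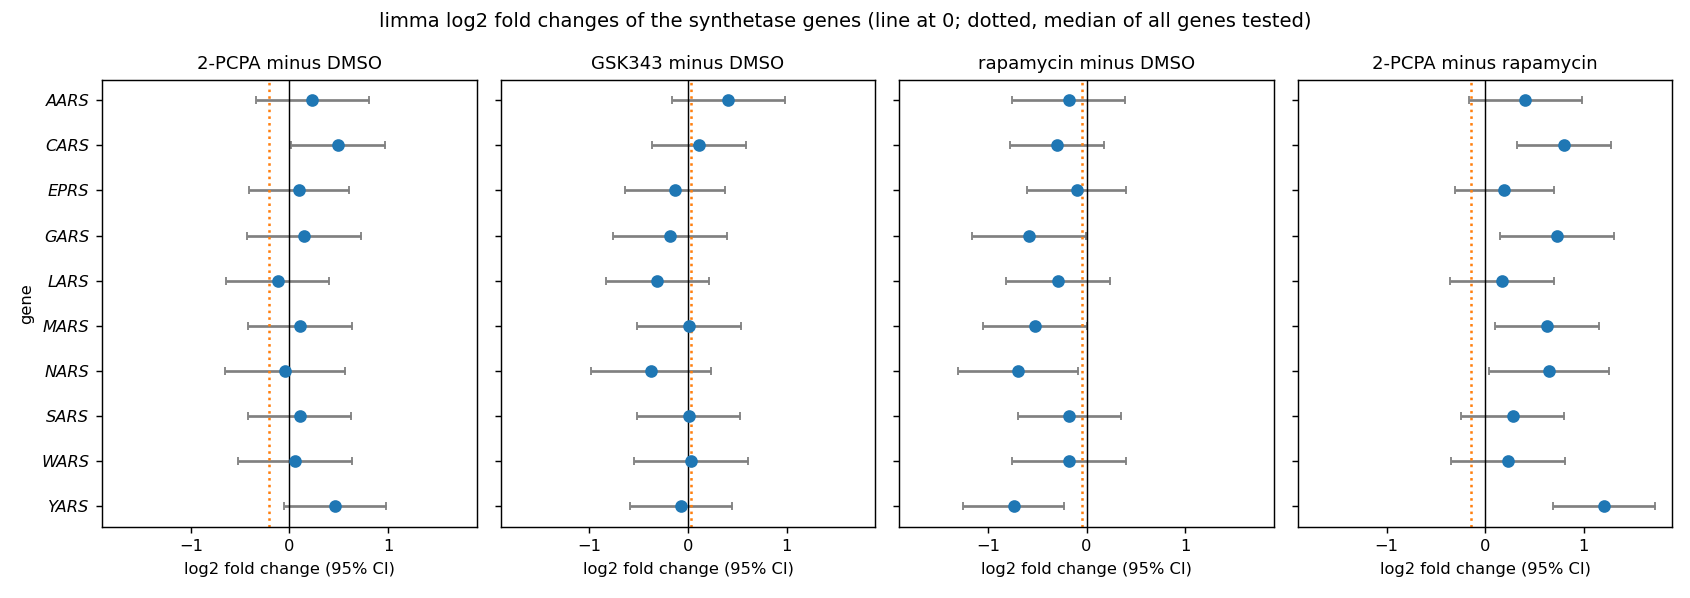
Log2 fold change of each synthetase gene (horizontal axis, log2(FPKM + 1) scale) in the 4 comparisons of compounds with 2 libraries each; points are limma estimates, bars 95% intervals and the dotted line the median of all genes tested. In 2-PCPA minus rapamycin the intervals of YARS, CARS, GARS, NARS and MARS lie above 0, but no member passes the adjusted test in any of the 4 comparisons.

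The compounds with 1 library have no replicate check, and a gene is counted here when its FPKM + 1 differed at least 1.5-fold from DMSO replicate 1. With GSK-J4 all 10 genes were higher than DMSO (50.2% of all genes were) and 8 reached 1.5-fold, against 19.1% of all genes. The largest log2 ratio was that of CARS, 1.71, at 84.9 FPKM with GSK-J4, against 25.3 FPKM with DMSO. WARS followed at 1.30 (59.9 FPKM with GSK-J4, 23.8 FPKM with DMSO) and GARS at 1.26 (233 FPKM with GSK-J4, 96.7 FPKM with DMSO). AARS, SARS, MARS, NARS and EPRS came next with log2 ratios between 0.60 and 1.00.

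LARS and YARS were the 2 genes under 1.5-fold with GSK-J4. LARS, the leucine enzyme of the multisynthetase complex, was at 32.8 FPKM with GSK-J4, against 29.9 FPKM with DMSO. YARS was at 83.3 FPKM with GSK-J4, against 58.6 FPKM with DMSO. The median log2 ratio of the 10 genes was 0.89, beside 0.00 for all genes of the library. The estimated depth of the GSK-J4 library was 0.655 of that of its DMSO library, a rough estimate that rests on 66 of 5944 genes. The part of depth in these ratios was not tested.

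BIX-01294 gave a different order of genes. YARS had its highest value of the replicate 1 table in this library, at 115 FPKM with BIX-01294, against 58.6 FPKM with DMSO, a log2 ratio of 0.96. WARS (44.2 FPKM with BIX-01294, 23.8 FPKM with DMSO) and SARS (209 FPKM with BIX-01294, 118 FPKM with DMSO) also passed 1.5-fold. These 3 of 10 compare with 21.9% of all genes at least 1.5-fold higher. EPRS and LARS were lower than DMSO, with log2 ratios of -0.12 and -0.24. The other 8 were higher (53.8% of all genes were), and the median over the 10 genes was 0.40.

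BRD4770, which is directed at the same methyltransferase as BIX-01294 but was given for 24 h at 20 μM, had 7 of 10 genes above DMSO (48.3% of all genes were) and 1 at least 1.5-fold higher, against 14.5% of all genes. That gene was CARS, at 39.5 FPKM with BRD4770, against 25.3 FPKM with DMSO. GARS was next, at 138 FPKM with BRD4770, against 96.7 FPKM with DMSO. YARS, highest with BIX-01294, was at 56.4 FPKM with BRD4770, against 58.6 FPKM with DMSO. Doses and times of these 2 compounds differ, and their ratios were not tested against each other. UNC1215 had 8 of 10 genes above DMSO (56.0% of all genes were), 0 of them 1.5-fold (6.26% of all genes), with log2 ratios between -0.09 and 0.37.

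The 2 deacetylase inhibitors had members mostly below DMSO. With VPA all 10 were lower (48.4% of all genes were) and 3 were at least 1.5-fold lower, against 6.83% of all genes. These were NARS (31.8 FPKM with VPA, 62.3 FPKM with DMSO), GARS (53.2 FPKM with VPA, 96.7 FPKM with DMSO) and YARS (35.0 FPKM with VPA, 58.6 FPKM with DMSO). WARS was the least different, at 21.6 FPKM with VPA, against 23.8 FPKM with DMSO. With SAHA 8 of 10 were lower (45.4% of all genes were), and 0 reached 1.5-fold lower, against 11.8% of all genes. The median log2 ratio was -0.47 with VPA and -0.33 with SAHA.

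**Figure D4:**
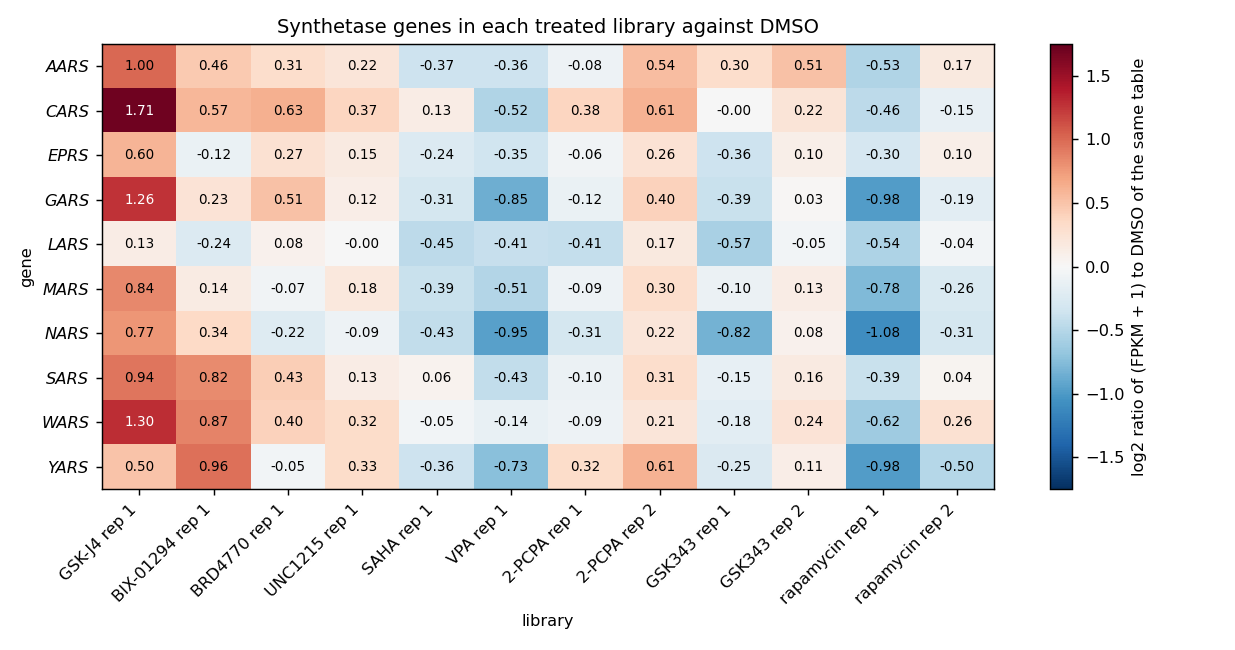
Log2 ratio of FPKM + 1 to DMSO of the same table for the 10 synthetase genes (rows) in the 12 treated libraries (columns), with the value written in each cell. The GSK-J4 column is above 0 throughout, the VPA and rapamycin replicate 1 columns are below 0 throughout, and the rapamycin replicate 2 column has values on both sides of 0.

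The other synthetase genes serve as the setting for these values. Of 10 further cytosolic synthetase genes, 9 had values in the replicate 1 table, since VARS (valine) is listed at 0 in its 10 libraries, while it was at 35.1 to 49.2 FPKM in the replicate 2 table. With GSK-J4, 3 of these 9 were higher than DMSO (50.2% of all genes were) and 6 lower, with a median log2 ratio of -0.17. DARS (aspartate), TARS (threonine) and IARS (isoleucine) were the 3 that were higher, with 0.62, 0.38 and 0.37. TARS was also the highest of this list with BIX-01294, at 212 FPKM, against 114 FPKM with DMSO. With VPA 8 of the 9 were lower (48.4% of all genes were), with a median of -0.47, beside -0.47 for the members. With SAHA 6 were lower (45.4% of all genes were), with a median of -0.04, beside -0.33. In rapamycin minus DMSO the median of the 9 was -0.31, beside -0.30 for the members. Lower values with VPA and rapamycin were thus not particular to the members. For 2-PCPA and GSK343 against DMSO it was -0.38 and -0.21, beside 0.11 and -0.03. With 2-PCPA set against rapamycin, the median log2 fold change of the 9, without VARS, was -0.08, with TARS at 0.73 ± 0.24 and QARS (glutamine) at -0.67 ± 0.27 as the extremes, and 0 of 9 passed limma's adjusted test (adjusted p = 0.401 and 0.421 for these 2).

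The 17 mitochondrial synthetases, encoded by separate genes, had a median log2 ratio of -0.40 with GSK-J4 over the 16 measured there. Of these, 5 were higher (50.2% of all genes were) and 11 lower. SARS2, the mitochondrial serine enzyme, was farthest below DMSO with a log2 ratio of -2.002. In the 4 limma comparisons 0 of the 17 passed, and their median was -0.25 for 2-PCPA, -0.15 for GSK343, -0.11 for rapamycin (each against DMSO) and -0.21 for 2-PCPA minus rapamycin. The 3 scaffold genes of the multisynthetase complex (AIMP1, AIMP2 and EEF1E1) had log2 fold changes between -0.29 and -0.03 in 2-PCPA minus rapamycin, and 0 passed.

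The other list of the pathway was 23 further genes that are targets or relatives of ATF4. With GSK-J4 all 23 were higher than DMSO (50.2% of all genes were), with a median log2 ratio of 1.31. Of the 23, 21 reached 1.5-fold, against 19.1% of all genes. The highest was DDIT4, an inhibitor of mTOR signalling, at 5.06, and the lowest was ALDH18A1, an enzyme of proline synthesis, at 0.25. With VPA 21 of the 23 were lower (48.4% of all genes were), with a median of -0.58. With SAHA 19 were lower (45.4% of all genes were), with a median of -0.48. The list split with BIX-01294, with 14 higher (53.8% of all genes were) and 9 lower, and a median of 0.46. DDIT3 and ATF3 were highest there, at 5.07 and 3.56, while DDIT4 and CHAC1 were lowest, at -1.22 and -1.20. With rapamycin the median was -0.72 in replicate 1 and -0.12 in replicate 2. In 2-PCPA minus rapamycin 21 of 23 were higher in both replicates (15.3% of all genes), with a median log2 fold change of 0.92. DDIT4 and CHAC1, which degrades glutathione, passed limma's adjusted test and were higher with 2-PCPA, with log2 fold changes of 3.54 ± 0.28 for DDIT4 and 2.83 ± 0.25 for CHAC1 (adjusted p = 0.00495 each). The other 21 of the 23 did not pass. The calls of DDIT4 and CHAC1 were each lost in 6 of 18 alternative settings: with no filter on low values, without the replicate block, and without either 2-PCPA or either DMSO library. Over all 18 the adjusted p ranged between 1.3e-11 and 0.671 for DDIT4 and between 5.6e-08 and 0.887 for CHAC1, and the log2 fold change between 2.86 and 4.07 for DDIT4 and between 2.07 and 3.39 for CHAC1.

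The kinases that phosphorylate eIF2alpha, EIF2AK1, EIF2AK2, EIF2AK3 and EIF2AK4, had a median log2 ratio of -0.06 with GSK-J4. There 2 were higher (50.2% of all genes were) and 2 lower. With BIX-01294 3 of the 4 were higher (53.8% of all genes were), EIF2AK3 most, at 1.43. With SAHA 2 of the 4 were lower (45.4% of all genes were), and EIF2AK3 was highest, at 0.81. With rapamycin all 4 were lower in both replicates (37.1% of all genes were), EIF2AK3 at -0.63 and -0.27. In 2-PCPA minus rapamycin their fold changes ran from -0.20 for EIF2AK4 to 0.39 for EIF2AK3, and 0 of 4 passed.

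**Figure D5:**
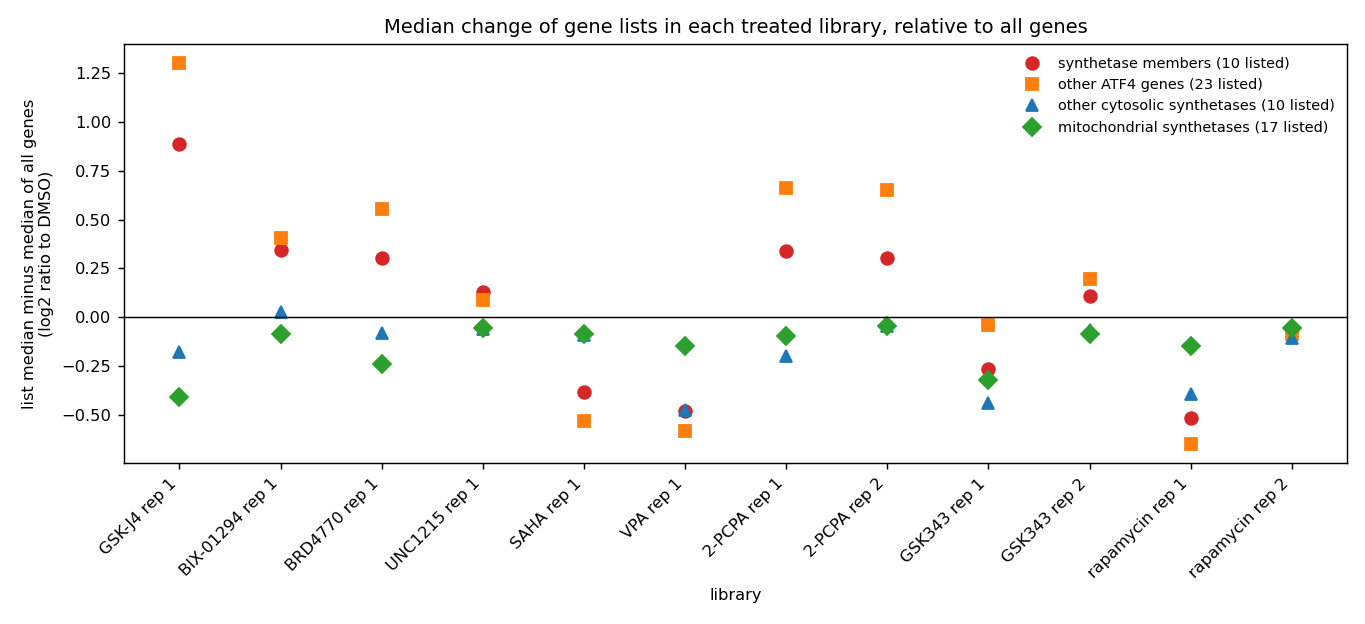
Median log2 ratio to DMSO of the same table, minus the median of all genes of that library (vertical axis, log2(FPKM + 1) scale), in each of the 12 treated libraries for the 10 synthetase members, 23 other ATF4 genes, the other cytosolic synthetases and the mitochondrial synthetases. With GSK-J4 the members (0.89) and the other ATF4 genes (1.30) lie above 0, the level of all genes, and the other cytosolic (-0.18) and mitochondrial (-0.41) synthetases lie below it.

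The members varied together over the libraries. For this description each log2(FPKM + 1) value was taken relative to the median gene of its library and centred within its table. Each gene was then correlated with the mean of the other 9 over 14 libraries, which share 2 tables and 2 DMSO libraries. Pearson's r was highest for GARS (0.967), CARS (0.951), NARS (0.943) and MARS (0.940), and lowest for EPRS (0.811), YARS (0.805) and LARS (0.730). The 45 pairs of members had r between 0.556 and 0.963, with a median of 0.827. The spread of the values over libraries (SD, n = 14) was widest for CARS (0.55), GARS (0.54) and YARS (0.53), and narrowest for EPRS (0.28) and LARS (0.23).

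Among 11604 other genes ranked by r with the mean of the members, XPOT was nearest (0.980). XPOT carries tRNAs out of the nucleus, and it was at 94.2 FPKM with GSK-J4 and 20.2 FPKM with rapamycin replicate 1, against 45.3 FPKM with DMSO replicate 1. The next were ISCA1 (0.956), the amino acid transporter SLC7A5 (0.952), BCAT1 (0.950), which handles branched-chain amino acids, PSAT1 (0.949), an enzyme of serine synthesis, the transporter SLC1A5 (0.945), ZNF770 (0.945) and ASNS (0.941), which makes asparagine. XPOT, SLC7A5, PSAT1 and ASNS are also on the list of ATF4 genes. The median r was 0.798 for the 23 ATF4 genes, 0.119 for 9 other cytosolic synthetases (without VARS), -0.155 for the mitochondrial ones and -0.049 for all genes ranked.

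The promoter element can be set beside these values. With GSK-J4 the 5 genes that hold TGATGNAA had log2 ratios between 0.77 (NARS) and 1.71 (CARS), and the 3 with a window that lacks it were at 0.60 (EPRS), 0.94 (SARS) and 1.30 (WARS), so the ranges overlapped. In the lists, the element was found in 2 of the 8 other cytosolic synthetases with a window, 1 of 14 mitochondrial synthetases, 5 of 19 other ATF4 genes, 0 of 3 scaffold genes and 0 of 3 kinases.

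Some members share exons with genes on the opposite strand in the GENCODE 29 annotation, and the sources used here do not say whether strand was used in the counting. MARS overlaps DDIT3, the stress factor CHOP and itself an ATF4 target. With BIX-01294, DDIT3 was at 354 FPKM, against 9.56 FPKM with DMSO, while MARS was at 100.0 FPKM with BIX-01294, against 90.8 FPKM with DMSO. With 2-PCPA DDIT3 was at 21.0 and 32.1 FPKM, against 9.56 and 8.81 FPKM with DMSO. The part of DDIT3 reads in the value of MARS was not tested. MARS also overlaps ARHGAP9, at 0 FPKM in DMSO replicate 1, and, on its own strand, the microRNA gene MIR6758. YARS overlaps S100PBP (13.2 FPKM in DMSO replicate 1) and WARS overlaps WDR25 (1.97 FPKM). CARS, GARS, LARS and WARS overlap noncoding transcripts of the opposite strand. AARS, EPRS, NARS and SARS share no exon with another annotated gene.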

How the data were processed

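The authors deposited 2 FPKM tables, with 28502 and 25209 rows, and per the submitters' processing notes FastQC, cutadapt and TopHat2 with the hg19 build were used. No version is stated, and the FPKM program and gene models were not given in the sources used here. Poly(A) RNA libraries were made per the labels' protocols. One row named unknown was left out. FPKM are not counts, so limma 3.58.1 (R 4.3.3) was run on log2(FPKM + 1) over 8 libraries of the 4 groups with 2 replicates, for 12603 genes averaging 1 FPKM or more, with an intensity trend, the replicate number (the table) as a block and Benjamini-Hochberg adjustment at 0.05. The block follows from the tables being made separately; same-numbered libraries deviated together, with correlations of 0.710 to 0.784 over 6 pairs. Libraries of the 6 other compounds were compared with DMSO replicate 1 among 12804 genes with a 1.5-fold rule on FPKM + 1 and no test. Adding 1 understates the change of low genes. The genes named were all 10 members, at most the 3 highest and 3 lowest of each list with those called, and the 8 genes most like the mean of the members; DDIT3 beside MARS was named for its overlap, after its values were seen. Members and lists were chosen with earlier results of these data known. Alternatives changed the pseudocount, the filter, the scaling, the block, the trend, the genes and groups fitted, and each library in turn; leaving VARS out of its list was added after seeing the data. Promoter sequences are from RefSeq (GRCh38.p14), and no coordinate was taken from the hg19 files.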

Additional observations from a re-analysis of the deposited data

How the results depend on the processing

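No member passed limma's adjusted test in any of 8 fits that each left out a library, in any of the 4 comparisons. With the replicate block removed, 0 of 10 members passed in each comparison, and 1, 0, 0 and 1 of all genes passed for 2-PCPA, GSK343 and rapamycin against DMSO and for 2-PCPA minus rapamycin. In 2-PCPA minus rapamycin YARS passed, so that 1 member was called in place of 0, under TPM scaling (adjusted p = 0.0392), without the rows of small RNAs and clones (0.0115) and with only these 2 groups fitted (0.0458). The same settings gave 52, 214 and 389 called over all genes, against 6 as reported; over all settings it ran between 0 and 389, for 2-PCPA against DMSO between 0 and 272, for GSK343 between 0 and 46 and for rapamycin between 0 and 68. The median of the members in 2-PCPA minus rapamycin was 0.67 with median centring and 0.92 with TPM scaling. The median of all genes moved too, from -0.14 as reported to 0.007 and 0.20. The members' median minus that of all genes was 0.66 as reported, 0.66 with centring and 0.72 with TPM scaling. With a library left out the members' median was 0.33 to 0.70. Against DMSO the members' median was 0.45 for 2-PCPA under TPM scaling, beside 0.085 for all genes (0.11 and -0.20 as reported). With a library left out the members' median was -0.093 to 0.32 for 2-PCPA, -0.25 to 0.16 for GSK343 and -0.50 to -0.099 for rapamycin. The median of all genes moved as well in some of these fits. Leaving VARS out of the other cytosolic synthetases, an alternative chosen after seeing the data, left their median in 2-PCPA minus rapamycin at -0.08. At a pseudocount of 5, 0 members reached 1.5-fold with BRD4770, and under TPM scaling 4 did with SAHA, all lower. Over 4 alternatives the number at least 1.5-fold apart was 7 to 8 with GSK-J4, 3 to 4 with BIX-01294 and 3 to 4 with VPA. Signs turned for 2-PCPA against DMSO with median centring and TPM scaling in LARS (0.081 and 0.21) and NARS (0.15 and 0.29), and for GSK343 in MARS (-0.032 and -0.088), SARS (-0.039 and -0.096) and WARS (-0.019 and -0.074). With 1 library left out, the log2 fold change with 2-PCPA against DMSO ranged -0.027 to 0.49 in AARS, -0.099 to 0.29 in EPRS, -0.14 to 0.43 in GARS, -0.39 to 0.15 in LARS, -0.087 to 0.30 in MARS, -0.41 to 0.32 in NARS, -0.087 to 0.30 in SARS and -0.21 to 0.32 in WARS. With GSK343 it ranged -0.017 to 0.24 in CARS, -0.33 to 0.063 in EPRS, -0.47 to 0.11 in GARS, -0.18 to 0.20 in MARS, -0.19 to 0.20 in SARS, -0.24 to 0.29 in WARS and -0.26 to 0.12 in YARS. With rapamycin it ranged -0.44 to 0.076 in AARS, -0.29 to 0.098 in EPRS, -0.37 to 0.017 in SARS and -0.50 to 0.14 in WARS, and in 2-PCPA minus rapamycin -0.088 to 0.56 in WARS. A library left alone in its group is assumed to vary like the others. The cause of these changes was not tested. With 2 libraries a group and 3 residual degrees of freedom, plus 5.42 borrowed across genes, changes of this size mostly lie within the interval of each gene, and the depth behind each FPKM value is not stated.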
